A study of Homo sapiens with 12 samples.

Results

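The mRNAs of 49 translation initiation and elongation factors were followed in MM1S cells, a human multiple myeloma line, during inhibition of N-glycosylation. The members were chosen by gene symbol, as the named factors of each complex, out of 59276 features listed, with earlier results of these data known. All 49 passed the filter on low values. Each of 4 groups held 3 libraries of total RNA: a day 0 group and groups exposed to NGI-1 at 10 μM for 2, 3 or 5 days. NGI-1 inhibits the oligosaccharyltransferase, the enzyme that attaches N-glycans to proteins in the endoplasmic reticulum. In the labels the day 0 libraries also carry NGI-1 as their treatment, but the study treats them as untreated, and they are called untreated here. No genotype was altered, all groups come from a single line, and no group holds cells kept without NGI-1 to a later day, so time in culture and NGI-1 cannot be told apart.

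Protein synthesis begins when eIF2, a GTPase of 3 subunits, brings the initiator methionyl-tRNA to the small ribosomal subunit together with eIF1, eIF1A, eIF5 and the large scaffold eIF3. The cap-binding complex eIF4F recruits the mRNA, the loaded subunit scans to the start codon, and eIF5B then joins the large subunit. Elongation follows, with eEF1A delivering aminoacyl-tRNA and eEF2 moving the ribosome along. Plasma cells, from which myeloma arises, make secretory protein in bulk and so carry a high load of translation at the endoplasmic reticulum. Several elongation factors, PABPC1, TPT1 and some initiation factors are encoded by TOP mRNAs (5′ terminal oligopyrimidine), which start with a C and a run of pyrimidines, as ribosomal protein mRNAs do, and whose translation depends on mTORC1 and LARP1.

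The start of the transcript is therefore shown first, because the median change of members with such a run lay apart from that of members without one. Each sequence holds 10 bases before and 20 from the RefSeq start site on GRCh38.p14, at the boundary of promoter and first exon. Capitals mark the tract, defined as a C at position 1 followed by at least 4 bases that are C or T. The first 8 sequences hold a tract and the last 4, of factors of the cap-binding complex, eIF2 and the exon junction complex, hold none. The sequences shown are a selection. Also with a tract but not shown are EIF3K and EIF2S3, whose log2 changes at day 5 were -2.17 and -2.05 in the deposited values. EEF1E1, EIF1 and EIF1B, also not shown, hold none and changed by 0.23, -0.82 and -0.94.
EEF1A1 (chr6:73521013-73521042, minus strand): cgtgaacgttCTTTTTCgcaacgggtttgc
EEF1B2 (chr2:206159885-206159914, plus strand): ctcttcgggtCCTTTTTCCTCTCTTCagcg
EEF2 (chr19:3985444-3985473, minus strand): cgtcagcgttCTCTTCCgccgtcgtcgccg
TPT1 (chr13:45341164-45341193, minus strand): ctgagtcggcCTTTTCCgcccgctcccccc
EIF4B (chr12:53006446-53006475, plus strand): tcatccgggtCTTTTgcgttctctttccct
EIF3F (chr11:7987327-7987356, plus strand): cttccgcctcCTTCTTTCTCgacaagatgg
EIF2A (chr3:150546777-150546806, plus strand): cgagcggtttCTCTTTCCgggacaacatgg
EIF4A2 (chr3:186783567-186783596, plus strand): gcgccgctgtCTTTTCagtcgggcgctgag
EIF4A1 (chr17:7572815-7572844, plus strand): ggcactccgccctagtttctaaggatcatg
EIF4E (chr4:98929114-98929143, minus strand): tggagcggttgtgcgatcagatcgatctaa
EIF2S1 (chr14:67360318-67360347, plus strand): gaggttccgcatgcgcggtggagtgagcga
EIF4A3 (chr17:80147109-80147138, minus strand): cggcagcggcacagcgaggtcggcagcggc

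Of the 49 members, 40 had a start site in the RefSeq table, and 12 of these 40 (30.0%) held a tract at one of their starts. Among all 27305 genes in that table, 1404 (5.14%) held one, and among ribosomal protein genes 47 of 63 did. The members with a tract were the 8 shown above and EIF2S3, EIF3D, EIF3K and EIF3M. EEF1G, which general knowledge places among TOP mRNAs, held none at its listed start. EIF2S2, EIF3A, EIF3E, EIF3G, EIF3H, EIF3L, EIF4EBP1, EEF1D and PABPC1 had no start site there and are left out of splits by tract. Of these, EIF3E had the highest day 5 change of all members, 1.34 (2.57 after rescaling). A match describes letters at an annotated start, which may not be the start used in these cells.

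Values are deposited as the log2 of TPM plus 1. TPM is a length-corrected share of the transcripts in a library, so levels of different genes can be set side by side. A member was called lower or higher when limma gave a Benjamini-Hochberg adjusted p under 0.05 over the 11939 features tested, with a log2 fold change beyond 0.5 either way. Over all tested features the median change on the log2 scale was -0.18 at day 2, -0.73 at day 3 and -0.99 at day 5. Each change is therefore also given after rescaling, for which a single factor per library brought the median log2 ratio of the 5433 features averaging 10 TPM or more to 0. In a bulk lysate, fewer cells of one kind and less of an mRNA per cell cannot be told apart. The depth behind a TPM value is not kept in the table. The labels state a depth above 60 M read pairs per library. The study describes its data in general as means of biological replicates, but neither the labels nor the RNA-seq methods say that the 3 libraries of a group came from separate cultures. The p-values measure the spread between these libraries, which may then be technical.

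Replicates of a group correlated at r between 0.985 and 0.992 across features, which are not independent replicates. All 9 plasma cell markers were detected, with summed levels of 3274 to 3458 TPM in untreated cells, 3983 to 4046 at day 2, 3529 to 3650 at day 3 and 3004 to 3341 at day 5. The sum covers opposite changes. The day 5 calls among the 9 were 6 lower with 1 higher (69.8% and 7.73% of all tested features). After rescaling they were 2 lower with 3 higher (26.9% and 27.5%). XBP1 went from a mean of 1547 to 366 TPM and SDC1 from 496 to 144 TPM, while TNFRSF17 went from 577 to 2087 TPM. Their part in the members' changes was not tested. Of the T cell markers, CD3D was at 0 in all libraries and CD3E was the only one above 1 TPM in a library. The T cell sum ran from 2.81 to 3.38 TPM in untreated cells, 5.53 to 7.19 at day 2, 5.03 to 7.22 at day 3 and 3.51 to 4.75 at day 5. Monocyte markers summed to at most 0.745 TPM and stromal markers to at most 0.448 TPM, with COL1A2 and COL3A1 at 0 throughout. Library H8 of day 3 and library H12 of day 5 lay closest to the less treated groups, with log2 rescaling factors of -0.17 and -0.44 where the other libraries of their groups had -0.31 to -0.38 and -0.69 to -0.80. Without both, 39 members were called lower at day 3 and 41 at day 5 on the deposited scale, as many as with them. After rescaling, 22 were called lower at day 3 and 28 at day 5 without both, against 19 and 26 with them. The shares of all features called without both were not counted.

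Most translation factor mRNAs made up a smaller share of the RNA after treatment, EIF3E and TPT1 a larger one, and 6 members did not pass the threshold at day 5. At day 2, 20 of 49 members were called lower (23.2% of all tested features) and 1, TPT1, higher (8.04% of features). By day 3 the calls were 39 lower (61.5% of features) and 2 higher (7.59%), and by day 5 they were 41 lower (69.8%) and 2 higher (7.73%). The median member stood at -0.37, -1.28 and -1.72 on the log2 scale on the 3 days, below the median of all features on each. After rescaling, 5 members were lower at day 2 (11.4% of features) and 1 higher (12.9%). For day 3 the rescaled counts were 19 lower (24.2%) with 9 higher (23.9%). For day 5 they were 26 lower (26.9%) with 9 higher (27.5%). Rescaled medians were -0.14, -0.43 and -0.53, against 0.013, -0.027 and -0.019 for all features. The share of members called lower after rescaling at day 5 was above that of all features, and the share called higher was below it.

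**Figure D1:**
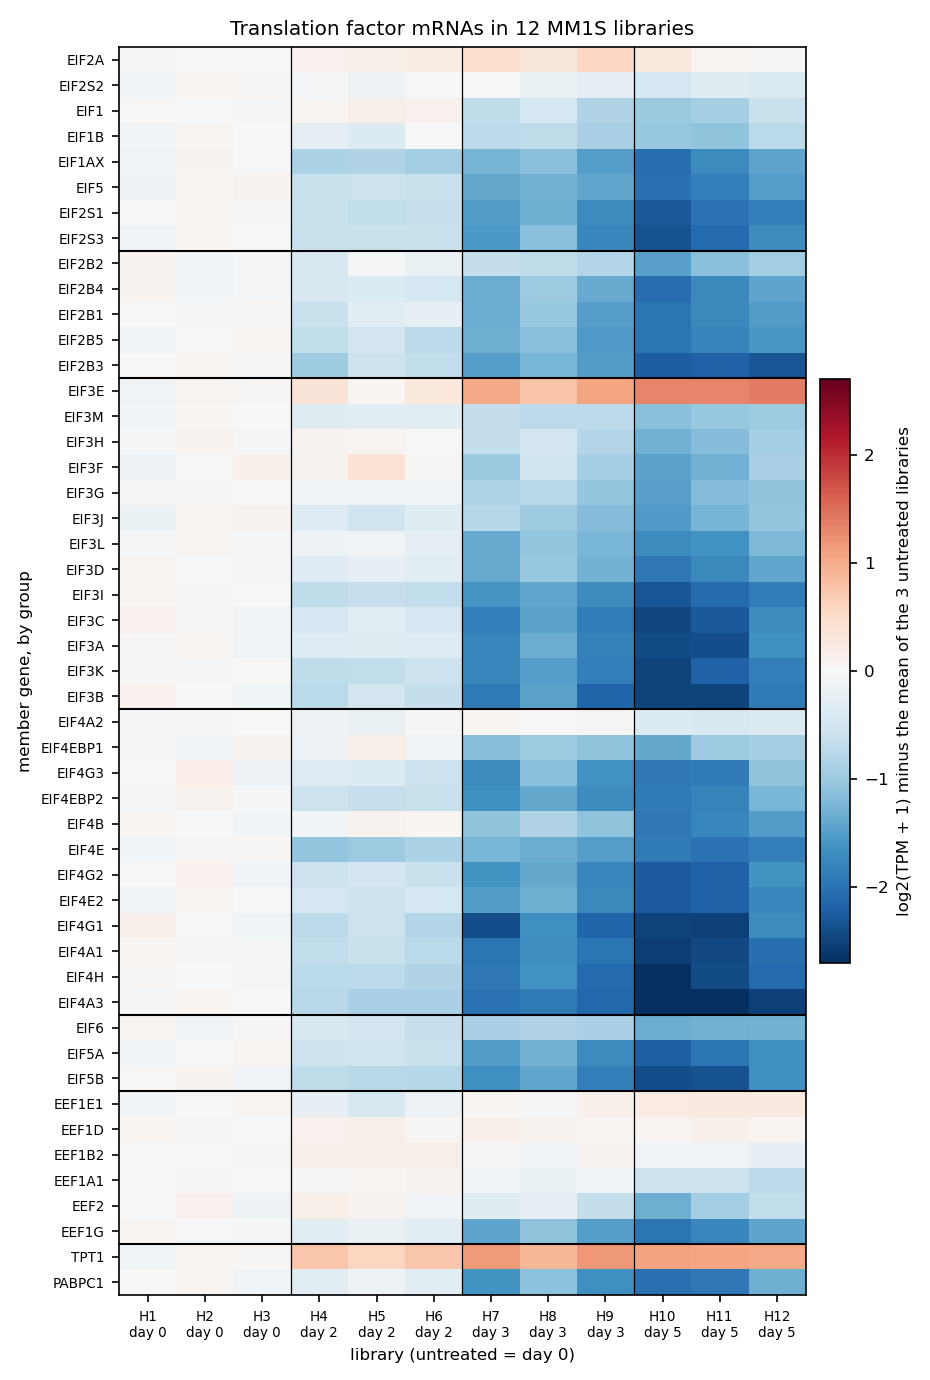
Level of each of the 49 members (rows, by group) in each of the 12 libraries (columns), as log2(TPM + 1) minus the mean of the 3 untreated libraries, on the deposited scale. Blue cells are lower and red cells higher than untreated. EIF3E and TPT1 turn red while EIF4A3, EIF4H and EIF4A1 are among the deepest blue at day 5, and the elongation factors stay pale except EEF1G and, at day 5, EEF2 and EEF1A1, of which EEF1A1 is called higher at day 5 after rescaling.

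By number of calls the largest step came between day 2 and day 3. In that step 34 members were called lower (55.5% of features) and 1, EIF3E, higher (3.22%). After rescaling that step held 8 lower (13.6%) with 7 higher (14.3%). From day 3 to day 5, 12 members were called lower (13.1% of features) and 0 higher (0.670%), with 2 higher at an unadjusted limma p under 0.05, and after rescaling 1 lower (2.03%) and 2 higher (4.43%). The count of 12 rested on single libraries: it was 5 without H8 of day 3, 5 without H10 of day 5, 24 without H9 of day 3 and 29 without H12 of day 5. The share of all features called was not counted in those fits.

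Here and below, ± gives the SD of 3 libraries for levels, shares and spreads. For log2 fold changes it gives the standard error of the limma fit. Together the members took 3.64% ± 0.0769 of all TPM before treatment, 3.56% ± 0.0574 after 2 days, 2.92% ± 0.0493 after 3 and 2.33% ± 0.0422 after 5. EEF1A1 alone made up 1.58% ± 0.0349 in untreated cells and 1.04% ± 0.0550 at day 5. The initiation factors went from 1.05% ± 0.0128 to 0.523% ± 0.0502. Over the same days the 79 cytoplasmic ribosomal protein genes went from 28.9% ± 0.546 to 48.7% ± 0.878 of the TPM. The factors that load and drive the ribosome took a smaller share of the day 5 libraries than of the untreated ones, and ribosomal protein mRNAs a larger one.

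The scanning factors and the eIF2 complex held 6 members called lower at day 5 (69.8% of all tested features), and EIF2S2 and EIF2A, which were not. EIF1 and EIF1AX keep the scanning subunit open until the start codon is found. EIF1 was at 772, 773 and 749 TPM before treatment, 804, 847 and 829.5 after 2 days of NGI-1, 473, 547 and 435 after 3 and 383, 413 and 506 after 5. All 3 day 2 libraries were slightly above the untreated ones and every library from day 3 on was below them, with a log2 fold change at day 5 of -0.82 ± 0.10 (0.40 after rescaling). Its paralogue EIF1B was much scarcer, at 41.2, 45.9 and 43.7 TPM before treatment, 36.2, 33.4 and 43.9 after 2 days of NGI-1, 26.2, 26.8 and 23.2 after 3 and 20.9, 20.1 and 26.1 after 5, and its change at day 5 was -0.94 ± 0.12 (0.25 after rescaling). EIF1AX was among the first to fall, by 0.86 on the log2 scale at day 2 (-0.63 after rescaling), from 87.1 ± 5.37 TPM to 47.4 ± 1.55 TPM (SD, n = 3 each).

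The 3 subunits of eIF2 did not move together. EIF2S1 encodes the alpha subunit, whose phosphorylation lowers global initiation in the integrated stress response. It was at 367, 384 and 360.5 TPM before treatment, 242, 232 and 242 after 2 days of NGI-1, 130.5, 148 and 112 after 3 and 75.8, 92.8 and 100.2 after 5. No treated library reached the untreated ones, and the day 5 level was 4.13-fold lower, a log2 change of -2.04 ± 0.11 (-0.83 after rescaling) with an adjusted p of 1.0e-09. EIF2S3, the gamma subunit that binds GTP and the tRNA, was at 137, 150.02 and 145 TPM before treatment, 93.9, 93.8 and 94.4 after 2 days of NGI-1, 48.2, 65.2 and 41.5 after 3 and 27.4, 32.8 and 43.8 after 5, and its day 5 change was -2.05 ± 0.16 (-0.84 after rescaling). EIF2S2, the beta subunit, stayed closer to its untreated level, at 201 ± 9.46 TPM untreated and 153 ± 8.42 TPM at day 5. Its change of -0.39 ± 0.083 (0.83 after rescaling) did not pass the threshold on the deposited scale and was called higher after rescaling. On the opposite strand EIF2S1 overlaps ATP6V1D, at 42.5 TPM untreated and 49.6 TPM at day 5. EIF2S2 likewise overlaps RALY, at 169 TPM untreated and 33.1 TPM at day 5. The part of these genes in the levels was not tested.

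EIF2A is a separate protein from eIF2 alpha, a single-chain factor that can bring initiator tRNA to some start codons. Its mRNA was at 163, 167 and 168 TPM before treatment, 179.5, 185 and 191 after 2 days of NGI-1, 229, 205 and 246 after 3 and 203, 174 and 163 after 5. Every day 2 and day 3 library was above all untreated ones, and the day 5 libraries overlapped them. The log2 change was 0.44 ± 0.089 (1.31 after rescaling) at day 3 and 0.11 ± 0.089 (1.33 after rescaling) at day 5, past the threshold on both days only after rescaling. Without H8 its day 3 change was 0.51 and was called higher. The gene overlaps SERP1 on the opposite strand, which averaged 126 TPM in untreated cells and 105 at day 5, and no source used here says whether reads were assigned by strand. EIF5, the GTPase activator of eIF2, fell to a day 5 change of -1.78 ± 0.12 (-0.57 after rescaling). After rescaling the day 5 calls among these 8 members were 4 lower with 2 higher (26.9% and 27.5% of all tested features).

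All 5 subunits of eIF2B, the exchange factor that reloads eIF2 with GTP, were called lower at day 5 (69.8% of all tested features), and 4 of 5 after rescaling (26.9%). EIF2B3, of the catalytic part, moved furthest. It was at 46.3, 47.6 and 43.9 TPM before treatment, 23.1, 30.4 and 28.8 after 2 days of NGI-1, 15.7, 19.1 and 15.4 after 3 and 9.1, 9.26 and 8.47 after 5. The day 5 libraries lay within a narrow range and were 4.72-fold below untreated, a log2 change of -2.24 ± 0.12 (-1.08 after rescaling). EIF2B2, of the regulatory part, moved least, at 31.0, 27.8 and 28.6 TPM before treatment, 21.4, 27.9 and 25.4 after 2 days of NGI-1, 18.3, 17.7 and 16.4 after 3 and 9.96, 12.8 and 14.7 after 5. At day 2 its libraries overlapped the untreated ones, and at day 5 its change was -1.18 ± 0.13 (-0.015 after rescaling). The changes of the other subunits at day 5 were -1.74 ± 0.15 (-0.60 after rescaling) for EIF2B1, -1.74 ± 0.15 (-0.57 after rescaling) for EIF2B4 and -1.78 ± 0.13 (-0.61 after rescaling) for EIF2B5. EIF2B1 overlaps GTF2H3 and DDX55 on the opposite strand, and GTF2H3 reached up to 159% of its TPM in a library.

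The 13 subunits of eIF3, the scaffold that holds the small subunit, the mRNA and the other factors together, drifted apart in mRNA level. On the deposited scale at day 5, EIF3E was called higher (7.73% of all tested features) and the other 12 lower (69.8%). After rescaling 5 were lower (26.9%) and 1, again EIF3E, higher (27.5%), and EIF3F, EIF3H and EIF3M turned to values slightly above 0. EIF3E was at 642, 718 and 701 TPM before treatment, 868, 707 and 833 after 2 days of NGI-1, 1403, 1170.1 and 1447 after 3 and 1712, 1705 and 1800.4 after 5. Every library of day 3 and day 5 was above every untreated library, and the day 2 libraries overlapped them. Its log2 change was 0.96 ± 0.092 (1.83 after rescaling) at day 3 and 1.34 ± 0.092 (2.57 after rescaling) at day 5, a 2.53-fold higher level (adjusted p = 1.06e-08).

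EIF3B was at the other end. It was at 99.8, 92.2 and 85.8 TPM before treatment, 55.3, 65.5 and 58.4 after 2 days of NGI-1, 23.7, 33.6 and 19.9 after 3 and 15.5, 15.6 and 24.0 after 5. No treated library overlapped the untreated ones, and the day 5 change was -2.3 ± 0.18 (-1.11 after rescaling). EIF3A and EIF3C, the largest subunits, changed by -2.16 ± 0.17 (-0.95 after rescaling) and -2.14 ± 0.16 (-0.93 after rescaling) at day 5, and EIF3I and EIF3K by -2.09 ± 0.10 (-0.87 after rescaling) and -2.17 ± 0.13 (-0.95 after rescaling). Those 5 were the ones called lower on both scales.

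EIF3D, which can itself bind the cap of some mRNAs, changed by -1.7 ± 0.12 (-0.48 after rescaling) and EIF3L by -1.53 ± 0.12 (-0.31 after rescaling). The smallest falls on the deposited scale were those of EIF3M at -1.05 ± 0.065 (0.18 after rescaling), EIF3H at -1.13 ± 0.10 (0.10 after rescaling), EIF3F at -1.21 ± 0.16 (0.0016 after rescaling), EIF3G at -1.24 ± 0.10 (-0.015 after rescaling) and EIF3J at -1.29 ± 0.13 (-0.072 after rescaling). None of these 7 passed the threshold after rescaling. EIF3F and EIF3H carry the subunits with a JAB1/MPN fold, and at day 2 their means, 159 ± 21.9 and 489 ± 14.8 TPM, stood at or above the untreated 141 ± 14.9 and 469 ± 24.5 TPM.

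Within a library, EIF3E stood above the median of the other 12 subunits by 1.52 ± 0.144 on the log2 scale before treatment (SD, n = 3), 2.17 ± 0.211 after 2 days, 4.01 ± 0.331 after 3 and 4.79 ± 0.217 after 5. The ranges of the 4 groups did not overlap. The SD of the 13 levels within a library was 0.857 ± 0.00476 untreated and 1.59 ± 0.0892 at day 5. Without EIF3E it still went from 0.784 ± 0.00742 to 1.02 ± 0.0767. For the 5 eIF2B subunits the SD was 0.329 ± 0.0257 untreated and 0.289 ± 0.0670 at day 5. These differences are of log2(TPM + 1) on the deposited scale, where the added 1 weighs more on low levels.

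**Figure D2:**
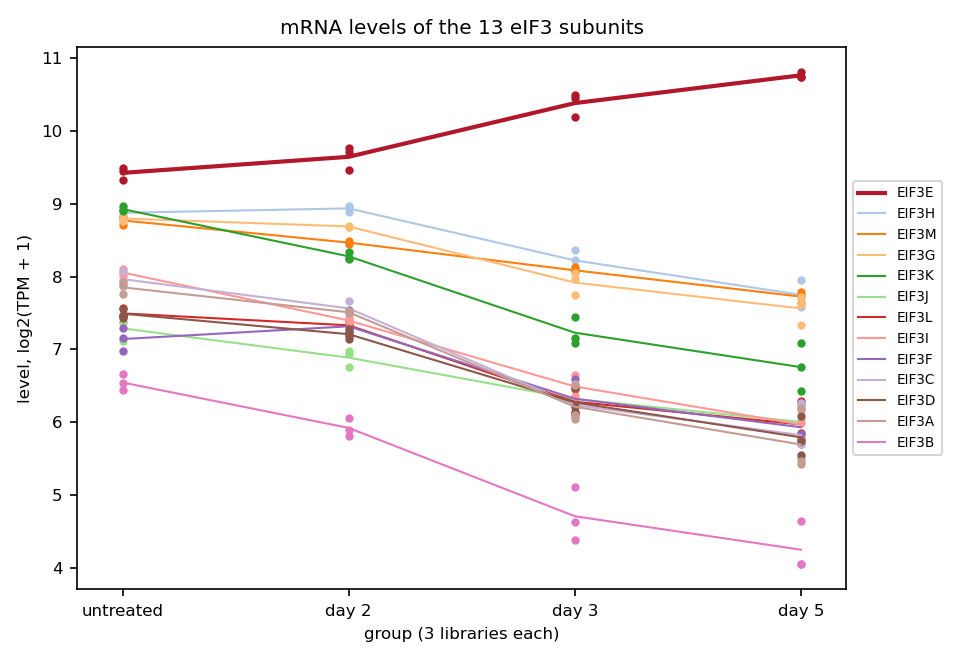
Levels of the 13 eIF3 subunits as log2(TPM + 1) in untreated cells and at day 2, 3 and 5, with 1 point per library and lines through the means of 3 libraries. EIF3E (thick red line) climbs to between 10.7 and 10.8 at day 5, while EIF3B, the lowest line, ends between 4.05 and 4.65. On the deposited scale the other 11 also end below their start, and after rescaling EIF3F, EIF3H and EIF3M do not.

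The cap-binding group had the lowest median of the groups at day 5, a log2 change of -1.97 (-0.75 after rescaling). Of its 12 members, 11 were called lower at day 5 (69.8% of all tested features), and 10 lower (26.9%) and 1 higher (27.5%) after rescaling. EIF4A3, the helicase of the exon junction complex rather than of initiation, had the largest fall of all 49. It was at 83.9, 89.8 and 86.9 TPM before treatment, 50.9, 47.2 and 46.7 after 2 days of NGI-1, 21.1, 22.4 and 19.1 after 3 and 11.4, 12.7 and 14.3 after 5. The level dropped in every group, without overlap between the groups, to a 6.4-fold lower value at day 5, a log2 change of -2.68 ± 0.10 (-1.5 after rescaling) (adjusted p = 2.54e-11).

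EIF4A1 and EIF4A2 are the near-identical helicases of eIF4F that unwind the 5′ end of the mRNA. EIF4A1 was at 904, 854 and 857 TPM before treatment, 553, 577 and 528 after 2 days of NGI-1, 222, 270.4 and 220.1 after 3 and 148, 160.1 and 211 after 5. EIF4A2 was at 340.2, 360.4 and 353 TPM before treatment, 320.4, 306 and 344 after 2 days of NGI-1, 363, 356 and 359 after 3 and 271, 260.3 and 267 after 5. In untreated cells and at day 2 EIF4A1 was the more abundant in every library, and in every library of day 3 and day 5 the order was turned. EIF4A1 changed by -2.34 ± 0.12 (-1.12 after rescaling) at day 5, and EIF4A2 by -0.40 ± 0.064 (0.82 after rescaling), which passed the threshold only after rescaling, as higher.

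The log2 ratio of EIF4A2 to EIF4A1 was -1.41, -1.24 and -1.28 before treatment, -0.79, -0.91 and -0.62 after 2 days of NGI-1, 0.70, 0.39 and 0.70 after 3 and 0.87, 0.70 and 0.33 after 5. All 9 treated libraries lay above the 3 untreated ones, by 1.46 on average, and the two-sided exact permutation test, with 220 choices of 3 libraries, gave p = 0.00455, the smallest it can give (adjusted p = 0.0121 over 8 pairs). EIF4A1 overlaps 2 features on its own strand, the read-through SENP3-EIF4A1, at 4.34 TPM untreated and 0.530 TPM at day 5, and AC016876.2, at 5.78 and 17.5 TPM. EIF4A2 overlaps RFC4 on the opposite strand, at 71.9 TPM untreated and 4.5 TPM at day 5. EIF4A2 also holds 5 snoRNA genes in the annotation and EIF4A1 holds 3. The part of these features in the 2 levels was not tested.

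EIF4B and EIF4H stimulate the helicase. EIF4B was at 693, 666 and 634 TPM before treatment, 629, 705 and 687 after 2 days of NGI-1, 314, 375 and 310.5 after 3 and 173, 194 and 233 after 5. It was level at day 2, when EIF4H had already fallen by 0.75 on the log2 scale (-0.52 after rescaling), and it was below every untreated library from day 3 on. At day 5 EIF4B had changed by -1.74 ± 0.10 (-0.51 after rescaling) and EIF4H by -2.4 ± 0.14 (-1.19 after rescaling).

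The scaffold EIF4G1 and its relatives fell by different amounts. EIF4G1 was at 179, 163 and 149.6 TPM before treatment, 99.7, 109 and 93.7 after 2 days of NGI-1, 30.1, 51.1 and 35.9 after 3 and 27.9, 27.8 and 49.4 after 5. EIF4G3, a second scaffold, was at 20.6, 23.6 and 18.3 TPM before treatment, 16.0, 15.7 and 13.6 after 2 days of NGI-1, 5.64, 8.99 and 6.01 after 3 and 4.72, 4.77 and 9.21 after 5. EIF4G2, also called DAP5, which lacks the binding site for eIF4E, was at 482, 526 and 458 TPM before treatment, 328, 341 and 323 after 2 days of NGI-1, 159, 187 and 144 after 3 and 102, 106 and 159.9 after 5. In each of the 3, library H12 had the highest level of its day 5 group and H8 the highest of its day 3 group. Changes at day 5 were -2.24 ± 0.21 (-1.04 after rescaling), -1.64 ± 0.21 (-0.53 after rescaling) and -2.01 ± 0.14 (-0.79 after rescaling) in that order.

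The log2 ratio of EIF4G3 to EIF4G1 was -3.06, -2.73 and -2.96 before treatment, -2.57, -2.72 and -2.7 after 2 days of NGI-1, -2.23, -2.38 and -2.4 after 3 and -2.34, -2.32 and -2.3 after 5. It was higher in all 9 treated libraries, by 0.48 (exact permutation p = 0.00455, adjusted 0.0121). For EIF4G2 over EIF4G1 the difference was 0.28 and 7 of 9 treated libraries lay above the untreated ones, which did not pass (exact permutation p = 0.0636, adjusted 0.102).

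EIF4E, which binds the cap itself, fell early. It was at 115, 124 and 123 TPM before treatment, 57.1, 60.9 and 66.1 after 2 days of NGI-1, 50.8, 46.9 and 42.4 after 3 and 31.6, 29.4 and 32.1 after 5. Every treated library was below every untreated one, and its day 2 log2 change of -0.96 ± 0.091 (-0.73 after rescaling) was the lowest of all 49 members on both scales. At day 5 the change was -1.92 ± 0.091 (-0.72 after rescaling). EIF4E2, or 4EHP, binds the cap without joining eIF4G and is known as a repressor. It was at 157, 174 and 164 TPM before treatment, 119, 109 and 118 after 2 days of NGI-1, 57.2, 65.6 and 48.9 after 3 and 34.0, 35.4 and 47.8 after 5, and its day 5 change was -2.07 ± 0.13 (-0.86 after rescaling). The log2 ratio of EIF4E2 to EIF4E went from 0.45, 0.49 and 0.40 untreated to 1.04, 0.83 and 0.83 at day 2, and to 0.10, 0.26 and 0.56 at day 5. Over all treated libraries the ratio differed by 0.047 (exact permutation p = 0.805, adjusted 0.805).

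The 4E-binding proteins EIF4EBP1 and EIF4EBP2 hold eIF4E away from eIF4G until mTORC1 phosphorylates them. EIF4EBP1 was at 179.9, 174 and 197 TPM before treatment, 165, 204 and 172 after 2 days of NGI-1, 82.4, 92.4 and 85.9 after 3 and 69.6, 92.2 and 97.7 after 5. It overlapped untreated cells at day 2 and was lower in every library of day 3 and day 5, with a day 5 change of -1.09 ± 0.12 (0.12 after rescaling). EIF4EBP2 was much scarcer, at 13.4, 14.7 and 13.3 TPM before treatment, 8.83, 8.62 and 8.8 after 2 days of NGI-1, 3.68, 4.66 and 3.55 after 3 and 2.92, 3.22 and 5.32 after 5, and changed by -1.65 ± 0.16 (-0.59 after rescaling) at day 5. EIF4EBP1 stayed closer to its untreated level than its target EIF4E or its paralogue did, as the ratios within libraries show.

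The log2 ratio of EIF4EBP1 to EIF4E was 0.65, 0.49 and 0.67 before treatment, 1.52, 1.73 and 1.37 after 2 days of NGI-1, 0.69, 0.96 and 1.0 after 3 and 1.12, 1.62 and 1.57 after 5. It was higher in all 9 treated libraries, by 0.68 (exact permutation p = 0.00909, adjusted 0.0182). The log2 ratio of EIF4EBP2 to EIF4EBP1 was -3.65, -3.48 and -3.8 before treatment, -4.08, -4.41 and -4.14 after 2 days of NGI-1, -4.15, -4.04 and -4.25 after 3 and -4.17, -4.47 and -3.96 after 5. It was lower in all 9 by a mean difference of -0.55 (exact permutation p = 0.00455, adjusted 0.0121). The ratio of EIF1B to EIF1 differed by -0.18 and 6 of 9 libraries lay below the untreated ones (exact permutation p = 0.10, adjusted 0.133).

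**Figure D3:**
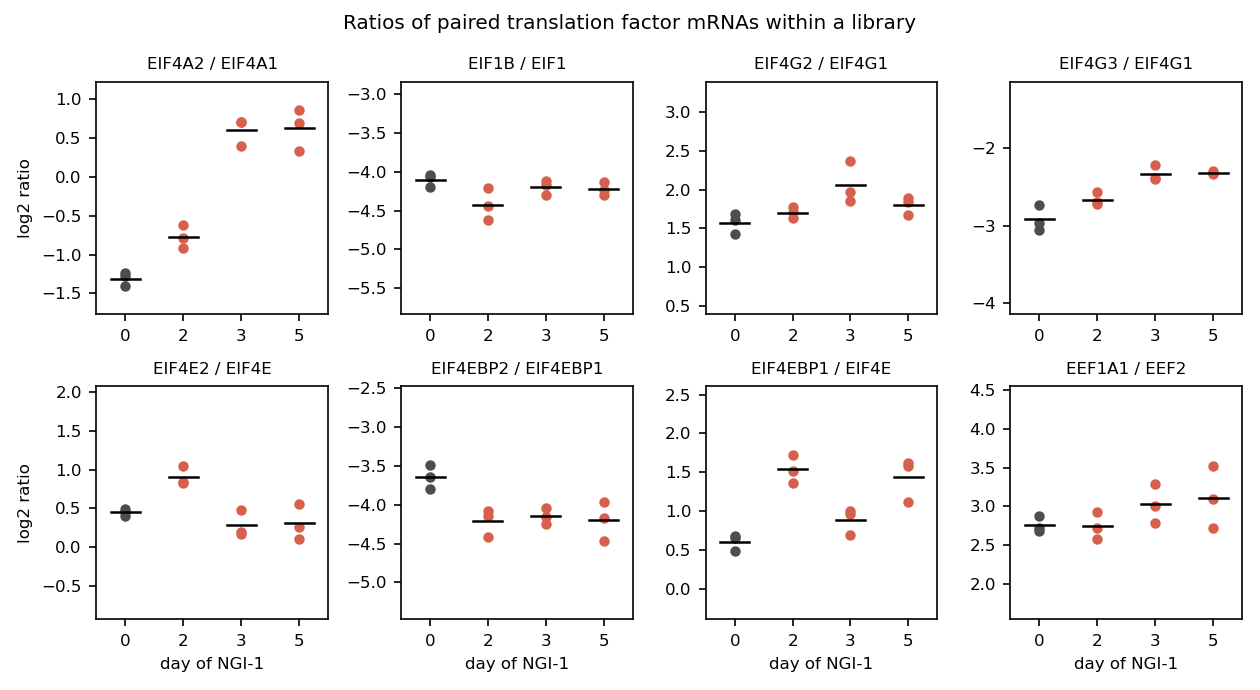
Log2 ratio of TPM + 1 of 2 members within each library, for the 8 pairs tested, at day 0 (untreated, grey) and day 2, 3 and 5 of NGI-1 (red), with 1 point per library and bars at the mean of 3. Every panel spans 3 log2 units. EIF4A2 over EIF4A1 crosses 0 between day 2 and day 3, and EIF4E2 over EIF4E is raised at day 2 alone, at a mean of 0.90 against 0.45 untreated.

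EIF5B, of subunit joining, and EIF5A and EIF6, grouped with it here, were called lower on all 3 days on the deposited scale. The shares of all tested features called lower were 23.2%, 61.5% and 69.8% on those days. At day 2 only EIF5B was called after rescaling (11.4% of features lower). The day 2 call of EIF6 was lost, at -0.48, -0.50 and -0.46, when H1, H3 or H6 was left out. EIF5B, the GTPase that brings the large subunit, was at 66.2, 70.6 and 61.8 TPM before treatment, 40.5, 38.8 and 38.6 after 2 days of NGI-1, 20.2, 24.4 and 17.5 after 3 and 11.7, 12.1 and 20.4 after 5, and its day 5 change was -2.14 ± 0.17 (-0.96 after rescaling). TXNDC9 overlaps it on the opposite strand and averaged 38.9 TPM untreated and 82.7 TPM at day 5. EIF5A, the hypusine-bearing factor that helps ribosomes through difficult peptides, was at 655, 695 and 721 TPM before treatment, 471, 478 and 451 after 2 days of NGI-1, 241, 284 and 209 after 3 and 149, 179 and 217 after 5, with a change of -1.94 ± 0.13 (-0.71 after rescaling). EIF6 keeps free large subunits from joining too soon, and was at 217, 194 and 211 TPM before treatment, 153, 147 and 134 after 2 days of NGI-1, 112, 118 and 112 after 3 and 80.9, 83.6 and 85.5 after 5. Its day 5 libraries lay close together, and its change was -1.3 ± 0.076 (-0.086 after rescaling). After rescaling EIF5A and EIF5B were called lower at day 5 (26.9% of all tested features).

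The elongation factors had a median log2 change of -0.37 at day 5 (0.86 after rescaling), where the groups of initiation factors ran from -1.33 to -1.97 (-0.14 to -0.75). Of 6 members, 3 were called lower at day 5 (69.8% of all tested features), and after rescaling 4 were called higher (27.5%). EEF1A1 is the most abundant member by far, in untreated cells as at day 5. It was at 15579, 16210.2 and 15638 TPM before treatment, 15530.4, 16491 and 16798 after 2 days of NGI-1, 14922, 13854 and 14622 after 3 and 10720.4, 10617 and 9719 after 5. The untreated and day 2 libraries overlapped and the day 5 libraries were the lowest, with a day 5 change of -0.61 ± 0.054 (0.61 after rescaling), called lower on one scale and higher on the other. Its 39 listed processed copies summed to between 0.599% and 0.910% of the gene and its copies, so few reads were assigned to them.

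EEF2, which moves the ribosome by a codon, was at 2359.7, 2516 and 2124 TPM before treatment, 2601, 2496 and 2199 after 2 days of NGI-1, 1856, 2009 and 1488 after 3 and 934, 1240.01 and 1473 after 5. The day 5 libraries differed among themselves but all lay below the untreated ones, and the change was -0.96 ± 0.15 (0.26 after rescaling). The log2 ratio of EEF1A1 to EEF2 was 2.72, 2.69 and 2.88 before treatment, 2.58, 2.72 and 2.93 after 2 days of NGI-1, 3.01, 2.78 and 3.3 after 3 and 3.52, 3.1 and 2.72 after 5, and its difference of 0.20 over the treated libraries did not pass (exact permutation p = 0.291, adjusted 0.332).

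The 3 genes of the exchange complex that recharges eEF1A diverged. EEF1G, its scaffold, was at 2327, 2216 and 2183 TPM before treatment, 1824, 1989 and 1805 after 2 days of NGI-1, 832, 1056 and 804 after 3 and 575, 660.4 and 835 after 5. The day 5 libraries were all below the untreated ones, with a change of -1.72 ± 0.12 (-0.49 after rescaling). EEF1B2 and EEF1D, which carry the exchange activity, stayed near their untreated level, at 1593 ± 29.1 and 264 ± 9.29 TPM untreated against 1459 ± 73.4 and 279.8 ± 10.3 TPM at day 5 (SD, n = 3 each). Their day 5 changes were -0.13 ± 0.061 (1.1 after rescaling) and 0.084 ± 0.065 (1.31 after rescaling), called higher only after rescaling. EEF1E1, a scaffold of the multi-synthetase complex also known as AIMP3, was at 143, 151 and 156 TPM before treatment, 128, 110.5 and 134 after 2 days of NGI-1, 156, 146 and 164 after 3 and 175, 177 and 176 after 5. All 3 day 2 libraries were below the untreated ones and all 3 day 5 libraries above them, with a day 5 change of 0.23 ± 0.083 (1.45 after rescaling) that passed the threshold only after rescaling.

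PABPC1 binds the poly(A) tail and links it to eIF4G. It was at 1961, 2038 and 1820.1 TPM before treatment, 1579.8, 1764 and 1579 after 2 days of NGI-1, 632, 902 and 617 after 3 and 477, 504 and 778 after 5. Library H12 stood above the other day 5 libraries and H8 above the other day 3 libraries, though no day 3 or day 5 library came near the untreated level. The change at day 5 was -1.76 ± 0.17 (-0.53 after rescaling). TPT1, or TCTP, is a TOP mRNA of an abundant growth-related protein that binds elongation factors. It was at 1479.8, 1688 and 1629.95 TPM before treatment, 2674, 2379 and 2666 after 2 days of NGI-1, 3554, 2985 and 3571 after 3 and 3376, 3343 and 3253 after 5. Every treated library was above every untreated one, from day 2 on. The log2 change was 0.69 ± 0.079 (0.92 after rescaling) at day 2, 1.07 ± 0.079 (1.94 after rescaling) at day 3 and 1.06 ± 0.079 (2.28 after rescaling) at day 5, a 2.08-fold higher level (adjusted p = 2.30e-08). By TPM it went from rank 5 to rank 2 among the 49 members, and EIF3E from rank 10 to rank 3.

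**Figure D4:**
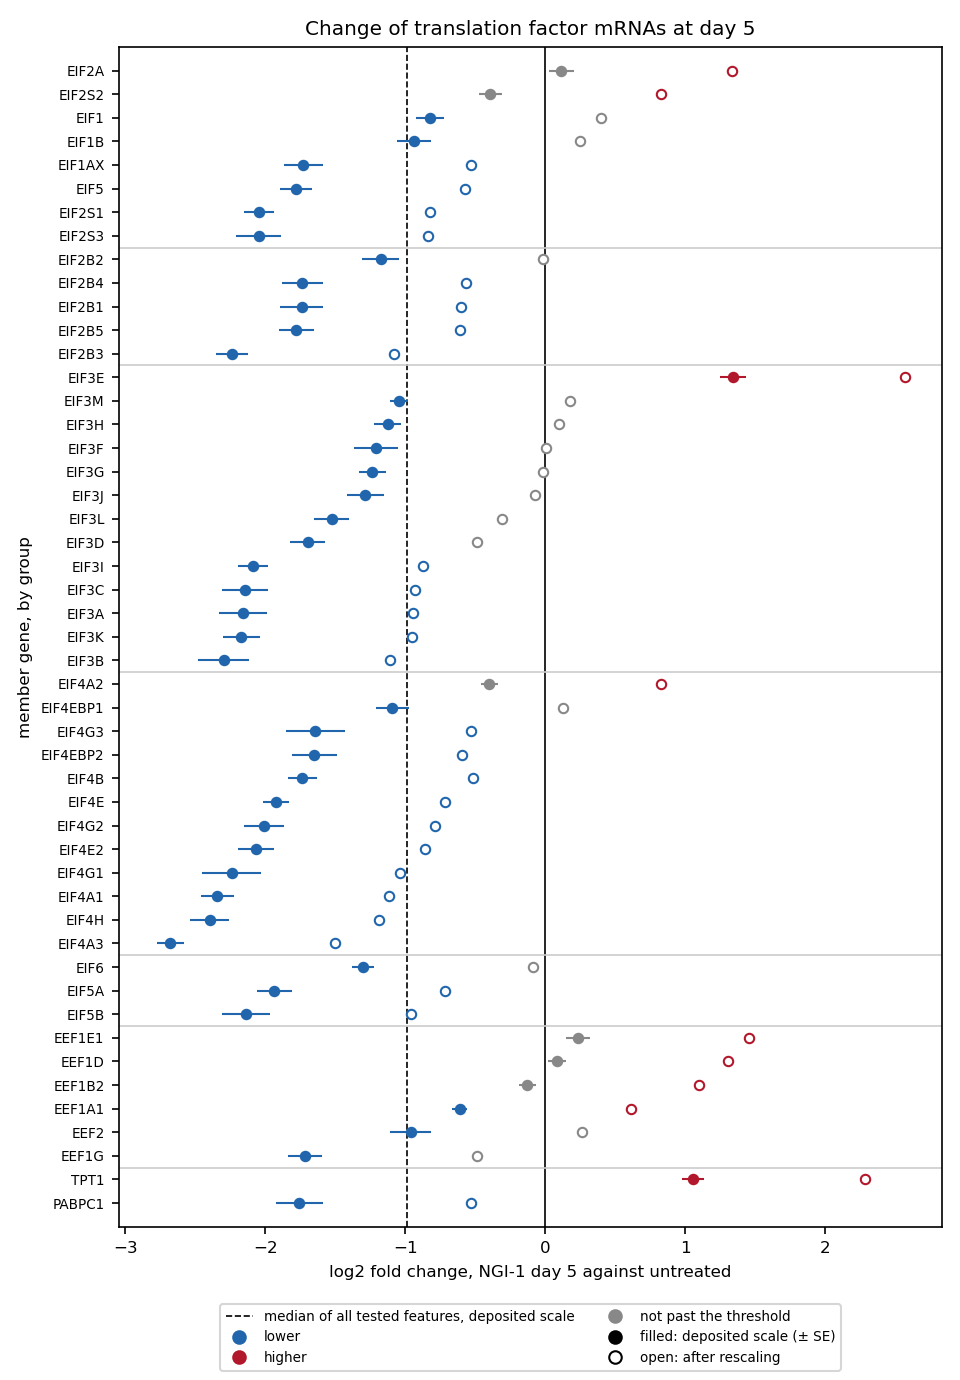
Log2 fold change of each of the 49 members at day 5 of NGI-1 against untreated, on the deposited scale (filled, ± SE of the limma fit, n = 3 per group) and after rescaling (open). Colour gives the call on that scale: lower in blue, higher in red, grey where the threshold was not passed. The dashed line is the deposited-scale median of all tested features, -0.99. EIF4A3 at -2.68 lies furthest below it and EIF3E at 1.34 furthest above, and EEF1A1 is lower on the deposited scale and higher after rescaling.

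Members with a tract at the start site had a smaller median change than those without. The 12 with a tract had a median log2 change of 0.030 at day 2, -0.54 at day 3 and -1.0 at day 5, against -0.58, -1.45 and -1.85 for the 28 without. The day 5 calls were 8 lower and 1 higher among the 12, and 27 lower among the 28, beside 69.8% lower and 7.73% higher over all tested features. The share called lower and the median of the 12 were close to those of all features, whose median was -0.99, and the 28 lay below. After rescaling the medians at day 5 were 0.22 and -0.66, with 3 lower and 5 higher among the 12 and 21 lower and 1 higher among the 28, beside 26.9% lower and 27.5% higher over all features. The groups overlapped: EIF3K and EIF2S3 hold a tract and changed by -2.17 and -2.05 at day 5 (-0.95 and -0.84 after rescaling), while EEF1E1 holds none and changed by 0.23 (1.45). These are descriptions of the members, which are few and chosen by role, and no test was run between them.

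The 11 members known as TOP mRNAs from general knowledge are only partly the same genes as the 12 with a tract. Of the 11, 7 are in the start-site table and 6 of these hold a tract. They had medians of 0.061, -0.39 and -0.96 on the 3 days against -0.51, -1.35 and -1.76 for the other 38. At day 5 the calls among the 11 were 7 lower and 2 higher, and after rescaling 2 lower and 5 higher, and their day 5 median lay 0.028 above that of all features. Among the 79 ribosomal protein genes the day 5 calls were 22 lower and 27 higher, and after rescaling 65 were higher. Their medians were 0.016 and 1.24. The background on the deposited scale was 69.8% of all tested features called lower and 7.73% called higher. Of the 11 TOP members 63.6% were called lower on that scale, close to this background, while 18.2% were called higher. With rescaled values the background was 26.9% lower with 27.5% higher, and the TOP shares were 18.2% with 45.5%. The median of the TOP members lay between those of the ribosomal protein genes and of the other translation factors, and close to that of all features on the deposited scale. PABPC1, EEF1G and EIF4B, all counted as TOP, were at the low end with changes near the median of the other members.

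**Figure D5:**
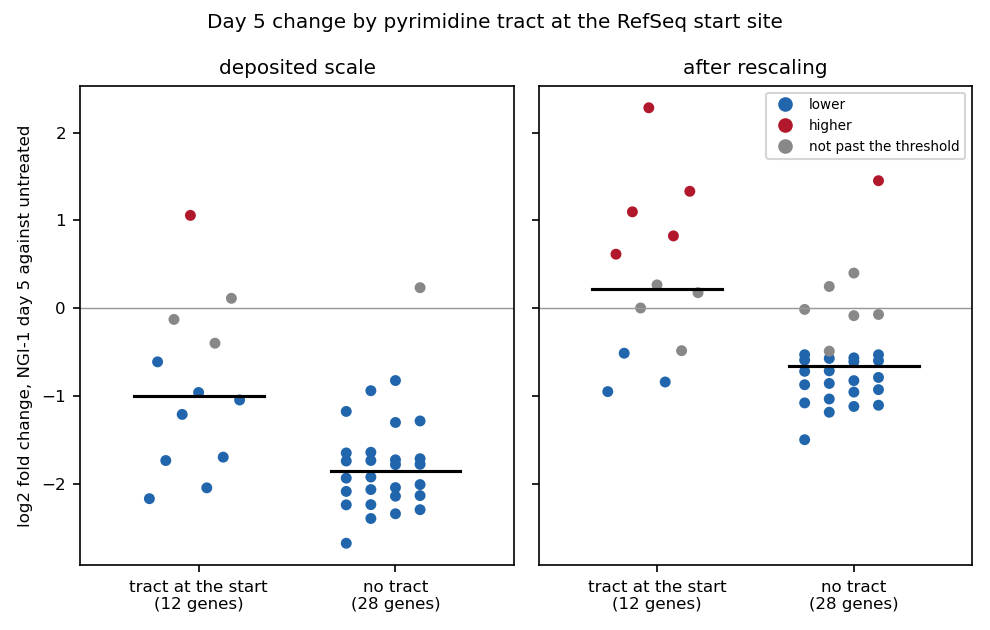
Log2 fold change at day 5 against untreated for the 40 members with a RefSeq start site, split by whether the transcript starts with a pyrimidine tract (12 members) or not (28), on the deposited scale and after rescaling. Each point is a member, coloured by its call, and bars mark the medians, -1.0 and -1.85 on the deposited scale and 0.22 and -0.66 after rescaling.

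Other features of the members were described against the change. Across the 49, the day 5 change correlated with the untreated level at r = 0.305 (Spearman's rho 0.218) and with the log2 of the median coding transcript length in GENCODE 29 at r = -0.364 (rho -0.342). These values share the same libraries and describe the members only. The 10 members with a snoRNA gene inside had a day 5 median of -1.76 and the other 39 one of -1.70.

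Near-identical copies took few of the assigned reads. Of the members with listed copies, EIF3C with its duplicate EIF3CL had the largest share in the copy, up to 7.55% in a library, followed by EIF1AX with up to 5.54%. Overlaps were looked up without pseudogenes and without small RNA genes such as snoRNA genes. Listed genes overlapped 33 of the members, 29 of them on the opposite strand, and for 16 members such a gene exceeded 5% of their TPM in a library. EIF3E and TPT1 were not among these: the gene overlapping EIF3E was at 0 in every library and those overlapping TPT1 reached at most 0.150% of its TPM. TPT1 also holds 2 snoRNA genes on its own strand, which this look-up did not cover, and EIF3E holds 0. The part of overlapping genes in the members' values was not tested.

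Termination, recycling and reinitiation factors, the next step of the cycle, were counted beside the same background of 69.8% of all features lower at day 5, and of 26.9% lower and 27.5% higher after rescaling. Of 9 genes, 7 were called lower at day 5, a share near that background, and 4 lower and 2 higher after rescaling. GSPT1, the GTPase eRF3a of termination, changed most, from 149 to 22.0 TPM, a log2 change of -2.74 ± 0.15 (-1.54 after rescaling). MCTS1, which works with DENR in recycling and reinitiation, changed least on the deposited scale, at -0.22 ± 0.16. After rescaling it was the highest of the 9, at 0.94.

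Of 19 kinases, phosphatases and repressors that act on the members, 15 fell and 1 rose past the threshold at day 5 (69.8% and 7.73% of all tested features). After rescaling 5 fell and 5 rose (26.9% and 27.5%). The rescaled shares were near those of all features. LARP1, the repressor of TOP mRNAs, changed from 99.7 to 22.5 TPM, by -2.17 ± 0.24 (-0.97 after rescaling). PDCD4, a repressor that binds the eIF4A helicase, was the one called higher at day 5. Its level went from 10.7 to 35.3 TPM, by 1.62 ± 0.18 (2.77 after rescaling), and it was the highest of the list at day 2 and day 3 as well, at 2.10 and 1.86 (2.28 and 2.66 after rescaling).

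Among 11 paralogues of the members and enzymes of hypusine synthesis, 10 were tested, and at day 5, 7 were called lower, again near the 69.8% of all features. After rescaling 4 were lower and 3 higher (26.9% and 27.5% of all features). EEF1A2, the tissue-restricted form of eEF1A, changed from 16.3 to 0.373 TPM, by -3.66 ± 0.12 (-2.91 after rescaling), a larger change than that of any member. EIF4E3 changed by 0.40 ± 0.19 (1.34) and EIF2S3B, at a mean of 0.481 TPM untreated and 0.0485 TPM at day 5, was too low to be tested. Of 8 mitochondrial factors 5 were lower, and after rescaling 2 lower and 2 higher, neither far from the shares of all features. Their ends were GFM1, a mitochondrial elongation factor, at -2.04 ± 0.17 (-0.88), and MTIF3, a mitochondrial initiation factor, at 0.38 ± 0.11 (1.57).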

How the data were processed

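Total RNA libraries of 12 MM1S samples (4 groups of 3) were made from 200 ng RNA each. The authors deposited one table of log2 values, the log2 of TPM plus 1, for 59276 features. The submitters' processing notes name FastQC, Trimmomatic, STAR, Salmon and hg38, without versions. No count is kept, so depth-based intervals could not be given.

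The 11939 features that reached 1 TPM in 3 or more libraries were fitted in limma 3.58.1 (R 4.3.3), in 1 fit of the 4 groups with a mean-variance trend. Calls needed a Benjamini-Hochberg adjusted p under 0.05 per comparison together with a log2 fold change beyond 0.5 either way. All day 2, 3 and 5 comparisons share the same untreated libraries. Fold changes of low features are understated by the pseudocount of 1. For rescaling, the fit was repeated with each library scaled so that the 5433 features averaging 10 TPM or more had a median log2 ratio of 0. Ratios of 8 pairs were tested by an exact two-sided permutation over libraries. Both tests were checked on simulated data. Python 3.11.15, pandas 2.3.3, numpy 2.4.6, scipy 1.17.1 and matplotlib 3.10.9 were used.

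Sequences and start sites came from RefSeq on GRCh38.p14 and lengths and overlaps from GENCODE 29. Members and lists were chosen with earlier results of these data known. All 49 members were named. Values in every library were given for the lowest and highest day 5 change in each group of members, both members of each pair, and EIF2S1, EIF4B, EIF5A, EEF1A1, EEF2, PABPC1 and TPT1. Of the other lists, the extremes at day 5 and genes not tested were named, with LARP1 and PDCD4 such extremes. Alternatives were no filter, a stricter filter, a pseudocount of 0.1, rescaling, dropping the 20 top features before the shares were taken, fits of 2 groups at a time, no trend, a fold threshold of 1, day 5 alone for the pairs and leaving out each library. Leaving out H8 and H12 together was chosen after seeing the data.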

Additional observations from a re-analysis of the deposited data

How the results depend on the processing

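No paired analysis was possible because the library names H1 to H12 carry no number shared between groups, and the replicate numbers used here follow accession order. Depth is not kept in TPM, so no interval for counting error could be given. The log2 fold changes depend on the scale: rescaling gave 5 members called lower at day 2. It gave 19 lower with 9 higher for day 3, and 26 lower with 9 higher for day 5. From day 2 to day 3 it gave 8 lower with 7 higher, and from day 3 to day 5 it gave 1 lower with 2 higher. With the 20 most abundant features left out, 2 members were higher from day 2 to day 3 and 4 lower from day 3 to day 5, and the members took 2.64%, 2.64%, 2.26% and 2.08% of TPM at day 0, 2, 3 and 5. Pairwise fits gave 6 lower from day 3 to day 5, and leaving out H8 and H12, chosen after seeing the data, gave 21. A log2 fold threshold of 1 left 0 lower and 0 higher at day 2, 1 higher at day 3, 16 lower with 0 higher from day 2 to day 3, and 0 lower from day 3 to day 5, because fewer changes exceed it. Leaving out 1 library gave 5 to 29 members lower from day 3 to day 5. Except for rescaling, the share of all features called was not counted under these alternatives, so these counts describe the members only. Beyond the construction of each alternative, the cause was not tested.

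With day 5 alone the log2 ratio moved by 1.94 for EIF4A2 over EIF4A1, by 0.60 for EIF4G3 over EIF4G1 and by -0.14 for EIF4E2 over EIF4E, against untreated. Leaving out 1 library gave -0.021 to 0.096 for EIF4E2 over EIF4E and 0.21 to 0.34 for EIF4G2 over EIF4G1, whose adjusted exact permutation p was 0.0485 without H7.

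Single members turned sign under rescaling. At day 2 these were EIF1B 0.020, EIF2S2 0.17, EIF3G 0.12, EIF3L 0.067, EIF4A2 0.11 and EIF4EBP1 0.20. At day 3 they were EIF1 0.20, EIF1B 0.085, EIF2S2 0.72, EIF2B2 0.12, EIF3F 0.040, EIF3H 0.21, EIF3M 0.18, EIF6 0.0074, EEF1A1 0.74 and EEF2 0.47. At day 5 they were EIF1 0.40, EIF1B 0.25, EIF2S2 0.83, EIF3F 0.0016, EIF3H 0.095, EIF3M 0.18, EIF4A2 0.82, EIF4EBP1 0.12, EEF1A1 0.61, EEF1B2 1.10 and EEF2 0.26. With the 20 most abundant features left out, EIF2S2 was at 0.032 and EIF4EBP1 at 0.063 at day 2, EIF2S2 at 0.11 at day 3 and EEF1B2 at 0.19 at day 5. EEF1A1 is among those 20 and has no value there. Leaving out 1 library gave -0.015 to 0.067 for EIF4B, -0.12 to 0.028 for EIF4EBP1 and -0.0067 to 0.13 for EEF2 at day 2, and -0.030 to 0.060 for EEF1B2 at day 3. The day 2 calls of EIF4G1 (without H1 or H6), EIF4E2 (without H2 or H5) and EIF6 (without H1, H3 or H6) were lost when 1 library was left out.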
